A study of Homo sapiens with 92 samples.

Results

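The heat shock and J-domain chaperones were taken as the rows whose gene name belongs to the HSPA, HSPB, HSPD, HSPE, HSPH, HSP90, DNAJA, DNAJB or DNAJC families, DNAJC25 excepted. This gave 123 members of 48905 rows, of which 70 are gene symbols and 53 are pseudogene symbols. The 70 gene symbols comprise 25 DNAJC, 13 HSPA (HSP70), 12 DNAJB, 8 HSPB (small heat shock protein), 4 DNAJA and 3 HSP90 genes, with HSPD1, HSPE1, HSPH1, HSPBP1 and HSPBAP1 making up the rest. New RNA was measured by SLAM-seq, in which 4-thiouridine (4sU) is fed to living cells, the RNA is alkylated, and the incorporated base is read as a T-to-C conversion. For each gene the deposited tables give the number of reads with a conversion (converted reads, the measure of new RNA) and the number of all reads.

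The RPE-1 libraries came from NIPBL-D7, 1 clone of hTERT RPE-1, a telomerase-immortalised human retinal pigment epithelial line, with the genotype mGreenLantern-P2A-FKBP12(F36V)-NIPBL. NIPBL loads cohesin onto chromatin, and dTAGV-1 degrades the FKBP12(F36V)-tagged protein; every group carries the tag, and DMSO is the vehicle. All RPE-1 cells were arrested with a double thymidine block and then 20 ng/ml nocodazole for 120 min, collected by mitotic shake-off and released. Cells of the mitosis series had drug or vehicle from the start of nocodazole onwards. The groups labelled for 15 min with 100 µM 4sU were sampled at 0 min (3 DMSO and 4 dTAG libraries), 30 min (3 and 3), 60 min (4 and 4), 90 min (4 and 4), 120 min (4 and 3), and 4, 6 and 8 h (2 and 2 at each time). Those of the release series met it only once nocodazole was gone, with 3 DMSO and 3 dTAG libraries at each of 30, 60, 90 and 120 min. Both series also had 3 DMSO and 3 dTAG libraries at 120 min that were labelled for the whole 120 min. WTC11 induced pluripotent stem cells were differentiated to cardiomyocytes and to neurons and treated for 4 h with DMSO or dTAG, with 120 min of 4sU and 2 libraries per group. The cell line field of these 8 libraries names hTERT RPE-1, and they were grouped by their titles. Nothing in the labels says that replicates came from separate cultures, so p-values measure the spread between these libraries, which may be technical.

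Chaperones of the HSP70 family bind exposed hydrophobic stretches of unfolded proteins in cycles of ATP hydrolysis. J-domain proteins (DNAJA, DNAJB and DNAJC) deliver clients and stimulate the HSP70 ATPase, HSPH1 exchanges the nucleotide, HSP90 takes over partly folded clients, small heat shock proteins hold unfolded proteins without ATP, and HSPD1 with HSPE1 forms the mitochondrial chaperonin. Heat shock factor 1 binds arrays of nGAAn units (heat shock elements) in the promoters of the inducible members, while the endoplasmic reticulum members such as HSPA5, HSP90B1 and DNAJB9 are targets of the unfolded protein response.

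The promoter letters of members that recur below are shown because the family is known for these elements, from RefSeq on GRCh38.p14. Each stretch lies within 250 bases upstream of an annotated start of the gene and is printed on the gene's strand, and capitals mark the match. The first 5 hold 3 contiguous heat shock units (GAANNTTCNNGAA or TTCNNGAANNTTC, either strand, overlapping matches joined). HSPA8 has 2 such matches in its window, and the match nearest the start is printed.
HSPA8 (HSP70 cognate; chr11:123062164-123062206, minus strand): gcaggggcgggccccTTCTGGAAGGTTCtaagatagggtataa
HSP90AA1 (inducible HSP90; chr14:102087105-102087147, minus strand): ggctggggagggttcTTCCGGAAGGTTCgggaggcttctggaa
HSP90AB1 (constitutive HSP90; chr6:44247763-44247858, plus strand): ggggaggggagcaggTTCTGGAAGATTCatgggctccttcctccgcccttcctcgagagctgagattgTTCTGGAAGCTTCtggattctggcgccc
HSPD1 (mitochondrial HSP60; chr2:197500053-197500090, minus strand): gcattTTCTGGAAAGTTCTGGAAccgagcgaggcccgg
DNAJB6 (an anti-aggregation J-domain protein; chr7:157336858-157336900, plus strand): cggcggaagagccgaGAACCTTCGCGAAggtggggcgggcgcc
The next 3 hold 2 contiguous units (GAANNTTC or TTCNNGAA).
HSPA1A (inducible HSP70; chr6:31815422-31815459, plus strand): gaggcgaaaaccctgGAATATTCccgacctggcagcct
DNAJB1 (the main HSP40 partner of HSPA1A; chr19:14518422-14518489, minus strand): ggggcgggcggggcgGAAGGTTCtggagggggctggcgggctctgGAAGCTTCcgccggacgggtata
HSPB8 (a small heat shock protein; chr12:119178828-119178865, plus strand): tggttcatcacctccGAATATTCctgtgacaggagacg
The last 2 hold the endoplasmic reticulum stress element (CCAAT, 9 bases, CCACG), in HSP90B1 in its reverse-complement form (CGTGG, 9 bases, ATTGG). HSP90B1 has 2 matches in its window, and the match nearest the start is printed.
HSPA5 (BiP, the HSP70 of the endoplasmic reticulum; chr9:125241376-125241424, minus strand): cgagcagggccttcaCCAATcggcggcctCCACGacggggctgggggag
HSP90B1 (GRP94, its HSP90; chr12:103930306-103930354, plus strand): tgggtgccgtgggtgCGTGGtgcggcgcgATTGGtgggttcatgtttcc

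Of the 63 member genes with a promoter in the table, 19 (30.2%) held the 2-unit match, against 14.0% of 27305 genes. The 3-unit match was in 5 (7.94%) against 0.557%, and the stress element in 2 (3.17%) against 0.0916%. HSPH1, HSPA9 and DNAJB9 had no 2-unit match in this window. A match describes letters in the window and was not tested as a site.

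Converted reads summed to 0.419 to 35.4 M per library (median 2.85 M), of 10.7 to 114 M reads, and made up 2.44 to 38.9% of them. The member genes took 0.379 to 0.772% of converted reads in RPE-1 libraries labelled for 15 min, 0.378 to 0.719% in those labelled for 120 min and 0.581 to 0.733% in the WTC11-derived cells. No library without 4sU was analysed here, so the background of converted reads is unknown. Replicate 3 of the mitosis series' DMSO group at 120 min, differed from its group: its 10 most abundant genes took 13.5% of converted reads, the highest of all libraries. The 12 mitotic genes followed as a check summed to 5081 to 6078 CPM (converted reads scaled to the library's total of converted reads) at 0 min in DMSO and to 1521 to 2440 CPM at 120 min. In the release series the same genes already stood at 395 to 798 CPM at 30 min, against 4661 to 5713 CPM at 30 min in the mitosis series. Cardiomyocyte markers summed to 4116 to 4698 CPM in cardiomyocytes and 28.1 to 65.8 CPM in neurons. Neuron markers summed to 2115 to 2289 CPM in neurons and 185 to 335 CPM in cardiomyocytes, and RPE-1 libraries reached 2103 CPM on the same list. dTAGV-1 acts on the protein, so no RNA count checks the drug's labels.

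Several members cannot be read alone. Many pseudogene symbols had far higher converted shares than the genes. Over the 72 libraries labelled for 15 min, the 59 gene symbols with at least 1000 reads had 1.30 to 10.1% of their reads converted (median 3.40%), and no gene symbol reached 50%. The 18 pseudogene symbols with at least 1000 reads had 2.34 to 99.4% converted (median 78.3%), and 14 of them were at or above 50%. HSP90AB2P had 99.4% and HSPA8P9 95.2% converted, whereas the parent genes HSP90AB1 and HSPA8 had 3.05% and 3.08%. Among all genes of the same libraries the share at or above 50% was 0.203% of 12802 protein-coding genes and 51.9% of 617 pseudogenes. Pseudogene symbols held 0.187 to 0.913% of converted reads in these libraries, a range that reaches above that of the member genes. Member genes and pseudogenes are therefore counted apart below. HSPA1A and HSPA1B are near-identical neighbours on chromosome 6, so reads can be split between them in an unknown way. HSPE1 lies wholly within the spans of HSPD1 and HSPE1-MOB4 and held 845 reads over all 92 libraries, and DNAJB4 (99.1% of its span covered by other rows) held 3062. For DNAJB1, 84.6% of the span is shared with TECR on the opposite strand, and for DNAJC2 54.5% with PMPCB and PSMC2.

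**Figure D1:**
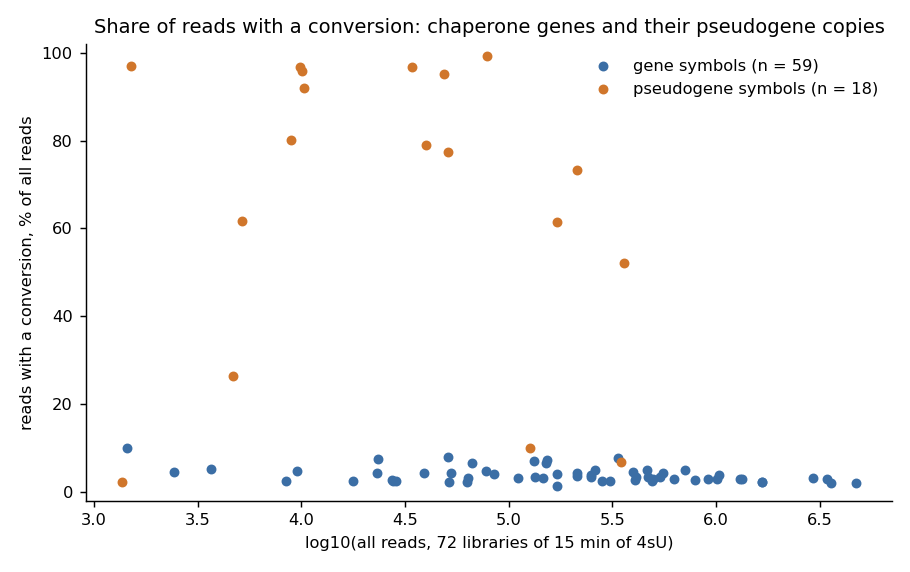
Share of reads with a conversion (y axis, % of all reads) against the number of all reads (x axis, log10) for each member with at least 1000 reads in the 72 libraries labelled for 15 min; each point is 1 symbol. The 59 gene symbols lie between 1.30 and 10.1%, whereas 14 of the 18 pseudogene symbols lie at or above 50%.

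Which chaperone genes are transcribed as cells leave mitosis was asked by setting each time of the mitosis series in DMSO against 0 min. By 60 min, 20 of 55 tested member genes had risen and 4 had fallen (43.6%), where 35.9% of all genes were called. The rises were led by the small heat shock protein HSPB8, by DNAJB9, by DNAJC30 and by DNAJC27. HSPB8 was kept by the count filter through later libraries, so a rise from 0 min was the only direction that could be called for it. The cytosolic chaperones with the highest levels, HSPA8, HSP90AA1 and HSP90AB1, were not called at 60 min. By 120 min HSPB8, the mitochondrial HSP70 HSPA9 and DNAJC2 were still higher than at 0 min, DNAJB9 and DNAJA1 were back near their starting level, and DNAJB6 and HSPA12A were lower. No member was called at 30 min.

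In edgeR's quasi-likelihood test with Benjamini-Hochberg adjustment over all 14206 genes, the called member genes were 43.6% of those tested at 60 min, where 35.9% of all genes were called. Their median log2 change was 0.28 against 0.02 over all genes. At 90 min 6 rose and 4 fell (18.2%, background 24.3%), and at 120 min 10 rose and 4 fell (25.5%, background 27.8%). At 30 min 0 of 55 were called by edgeR or by DESeq2 and 0 had an unadjusted p under 0.05; the background was 0.0% of all genes. The shares at 60, 90 and 120 min thus lie near those of all genes. In the dTAG libraries 7 rose and 5 fell at 120 min against 0 min (background 25.3%). With library sizes taken from all reads in place of TMM on converted reads, the median of all genes rose by 0.60, 0.49 and 0.42 on the log2 scale at 60, 90 and 120 min. The split became 37 higher and 0 lower, 27 and 0, and 16 and 2, so falls are falls relative to the other new RNA. The share of all genes called in that setting is not given here, so these counts cannot be read as particular to the members. Left out in turn, the replicate numbers spared 8 calls at 60 min (DNAJA1, DNAJB9, DNAJC2, DNAJC21, DNAJC24, DNAJC27, HSPA14 and HSPBAP1), 4 at 90 min (DNAJC1, DNAJC2, DNAJC24 and HSPA12A) and 4 at 120 min (HSPB8, HSPA9, HSPA12A and DNAJB6); without replicate 2 or replicate 4, 13 member genes were called at 60 min and 6 at 120 min. In these bulk samples, fewer cells making a transcript and less of it per cell cannot be told apart.

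**Figure D2:**
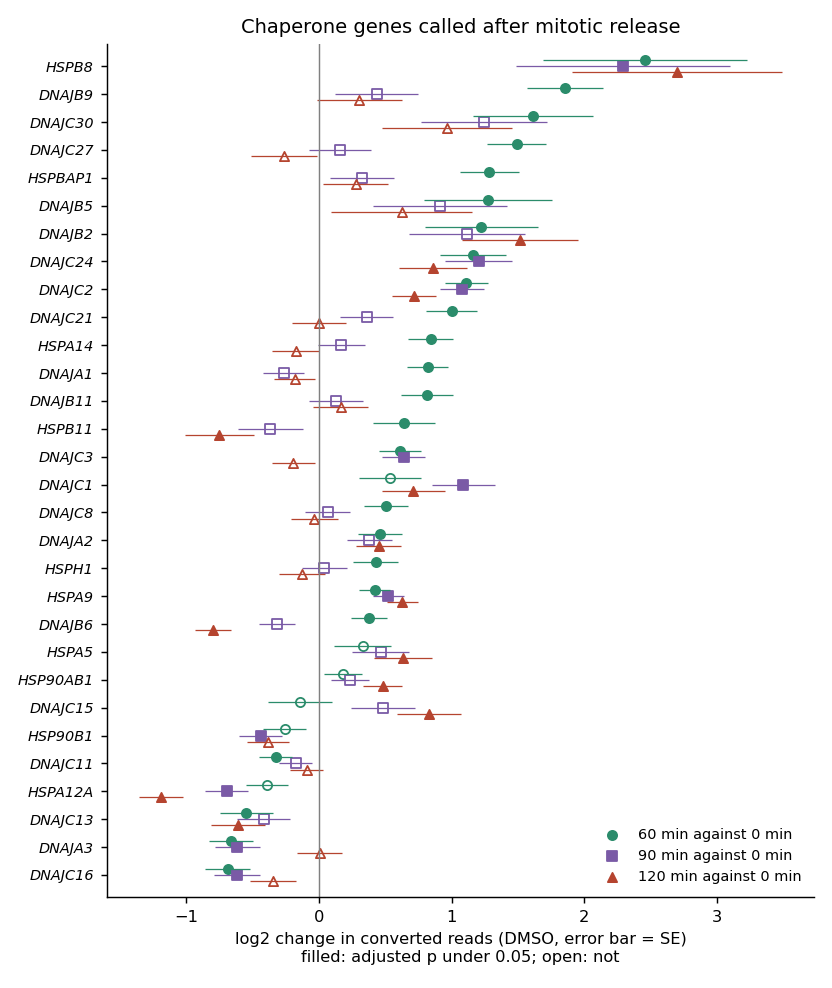
Log2 change in converted reads in DMSO against 0 min (x axis, error bars SE) for each member gene called at 60, 90 or 120 min (y axis), with filled symbols for an adjusted p under 0.05. HSPB8, DNAJB9, DNAJC30 and DNAJC27 lead the 60-min rises at 2.46, 1.86, 1.62 and 1.49, and HSPA12A is lowest at 120 min at -1.19.

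Among the small heat shock proteins, HSPB8 (chromosome 12, 119178642 to 119221131, plus strand, hg38), which works with BAG3 in clearing misfolded proteins, went from 0.48, 1.00 and 2.73 CPM in the DMSO libraries at 0 min to 7.33, 6.23, 8.70 and 6.20 CPM at 60 min. At 120 min its libraries held 5.92, 4.78, 18.3 and 9.04 CPM. Every library at 60 and 120 min lay above every library at 0 min. The 0-min values rest on 5 converted reads in 3 libraries. HSPB8 thus passed the count filter through later libraries, and only a rise from 0 min could be called. The log2 change was 2.46 ± 0.77 (SE) at 60 min (edgeR adjusted p = 0.013) and 2.70 ± 0.79 at 120 min (adjusted p = 0.00995), and it was 2.39 ± 0.55 at 120 min in dTAG (adjusted p = 0.0012). The 120-min call held with each replicate left out, and the 60-min call did not without replicate 2 (adjusted p = 0.065). HSPB11, an intraflagellar transport subunit despite its symbol, had a log2 change of 0.64 at 60 min and -0.75 at 120 min, both called. HSPB1, the major small heat shock protein of many cells, held 17.9, 20.1 and 24.6 CPM at 0 min and 13.2, 16.5, 36.6 and 15.7 CPM at 120 min, ranges that overlap.

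Among the endoplasmic reticulum members, DNAJB9 (ERdj4, a co-chaperone of HSPA5 that restrains the stress sensor IRE1) showed a sharp 60-min maximum. It held 6.30, 9.05 and 9.09 CPM at 0 min, 29.0, 28.4, 25.6 and 31.7 CPM at 60 min, 10.51, 10.3, 8.86 and 13.5 CPM at 90 min, and 11.8, 9.03, 9.98 and 8.44 CPM at 120 min in DMSO. The dTAG libraries at 60 min held 37.7, 22.0, 23.4 and 31.5 CPM. All 8 libraries at 60 min, in DMSO and in dTAG, lay above every library at 0 and 90 min in DMSO. The log2 change at 60 min was 1.86 ± 0.29 (edgeR adjusted p = 8.6e-06), and the share of its reads that were converted went from 3.32% at 0 min to 8.42% at 60 min. Over the same DMSO groups the mean converted share of whole libraries went from 2.77% to 3.95%. DNAJC3 (P58IPK, another HSPA5 partner) rose by 0.61 ± 0.16 and DNAJB11 by 0.81 at 60 min, whereas DNAJC16 fell by 0.69. HSPA5 itself held 207, 251 and 226 CPM at 0 min and 292, 316, 508 and 311 CPM at 120 min. Its rise of 0.63 ± 0.22 at 120 min (edgeR adjusted p = 0.027) was lost without replicate 3, the library described above (0.37, adjusted p = 0.19). HSP90B1 was called lower only at 90 min, by 0.44, and its change was 0.03 with library sizes from all reads. Of the 12 endoplasmic reticulum members tested, 3 rose and 1 fell at 60 min, 2 rose and 2 fell at 90 min, and 2 rose at 120 min. Of all genes, 35.9%, 24.3% and 27.8% were called at these times.

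The cytosolic partners of HSP70 included another gene with a 60-min maximum. DNAJA1, a farnesylated HSP70 co-chaperone, held 186, 227 and 185 CPM at 0 min, 322, 371, 335 and 378 CPM at 60 min and 175, 145, 156 and 187 CPM at 90 min. Its 60-min libraries lay above all those at 0 and 90 min, with a log2 change of 0.82 ± 0.15 at 60 min (edgeR adjusted p = 0.00011). DNAJC27, a Rab-related J-domain protein, went from 15.99, 17.1 and 20.9 CPM to 45.5, 61.2, 38.9 and 54.7 CPM at 60 min and back to 15.1, 14.9, 11.7 and 16.3 CPM at 120 min. The 60-min change of DNAJC27 was 1.49 ± 0.22 (adjusted p = 4.5e-06, edgeR). DNAJB6 held 258, 217 and 217 CPM at 0 min, 287, 275, 334 and 306 CPM at 60 min and 162, 143, 99.8 and 122 CPM at 120 min. DNAJB6 was thus called higher at 60 min (0.38) and lower at 120 min (-0.80 ± 0.14), and the 120-min change in dTAG was -0.86 ± 0.14. DNAJC2, a ribosome-associated J-domain protein, was higher at 60, 90 and 120 min by 1.11, 1.08 and 0.72. DNAJC24, which acts in diphthamide synthesis, was higher by 1.16, 1.20 and 0.86. DNAJC2, DNAJC24, HSPA9 and HSPB8 were the 4 member genes called higher at all 3 times, HSPB8 with the filter limit given above.

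Of the 10 cytosolic HSP70 and HSP110 genes tested, HSPA14 (0.84) and HSPH1 (0.43) rose at 60 min, and HSPA12A was the member of this group called at 90 and at 120 min, lower both times. HSPA8, the constitutive HSP70, held 776, 816 and 794 CPM at 0 min and 995, 659, 1393 and 738 CPM at 120 min, with the highest value again in replicate 3. The inducible HSPA1A held 3.88, 5.03 and 4.55 CPM at 0 min and 1.97, 0.00, 8.32 and 3.62 CPM at 120 min, ranges that overlap. DNAJB1, another inducible gene, held 60.1, 66.4 and 54.6 CPM at 0 min and 57.9, 46.2, 93.2 and 51.8 CPM at 120 min, and was not called at any time. HSPA12A, a distant HSP70 relative, held 214, 237 and 260 CPM at 0 min and 107, 88.7, 91.5 and 125 CPM at 120 min. Its 2 ranges do not overlap, and its change was -1.19 ± 0.17 (edgeR adjusted p = 1.5e-06). Of the 3 HSP90 genes, HSP90AB1 had a called 120-min change of 0.48 ± 0.14 that was lost without replicate 3 (0.29, adjusted p = 0.11), and HSP90AA1 was not called (-0.41 at 60 min, adjusted p = 0.11). In the mitochondrial group, HSPA9 (mortalin) held 189, 169 and 164 CPM at 0 min and 281, 280, 270 and 246 CPM at 120 min, a rise of 0.63 ± 0.12 (edgeR adjusted p = 0.0001) with no overlap. DNAJC30 (1.62 ± 0.45) rose and DNAJA3 and DNAJC11 fell at 60 min, by 0.66 and 0.33, and HSPD1 was not called at any time (0.08 at 60 min).

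**Figure D3:**
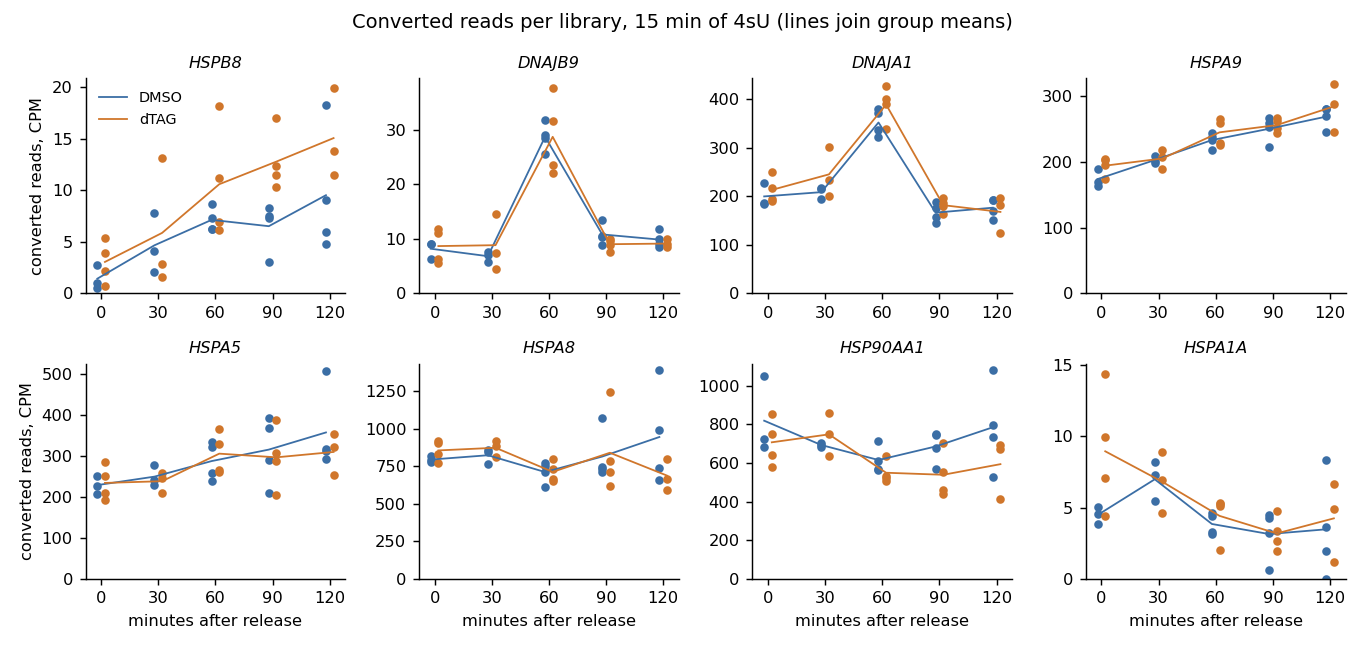
Converted reads (y axis, CPM) of 8 member genes in each library of the mitosis series labelled for 15 min, by minutes after release (x axis), with DMSO in blue, dTAG in orange and lines through the group means. DNAJB9 and DNAJA1 peak at 60 min in both arms, HSPA9 stays higher to 120 min, and HSPA8, HSP90AA1 and HSPA1A show overlapping libraries.

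The wider stress pathways were followed in the same comparisons. Of 22 unfolded protein response genes, 7 rose and 1 fell at 60 min (36.4%, background 35.9%) and 6 rose and 0 fell at 120 min (27.3%, background 27.8%), shares at the level of all genes. The largest 60-min changes were in DDIT3 (CHOP, a stress transcription factor; 3.41 ± 0.54), HERPUD1 (an endoplasmic-reticulum-associated degradation factor; 2.45 ± 0.37) and XBP1 (the transcription factor spliced by IRE1; 1.49 ± 0.29). Of 32 heat shock factor and co-chaperone genes, 11 rose and 1 fell at 60 min (37.5%, also near the background), led by BAG1 (2.25 ± 0.19), CDC37L1 (1.52 ± 0.25) and BAG3 (1.36 ± 0.16), and 3 rose at 120 min. Of the 8 subunits of the CCT chaperonin, 1 rose at 60 min and 2 at 120 min (backgrounds 35.9% and 27.8%). The pseudogene symbols went the other way at 60 min, with 8 of 18 lower and 0 higher (44.4%, background 35.9%, median -0.59). Relative to all reads of the same row HSPA8P1 stood at 0.01, still below the median of all genes in that setting (0.59).

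In the release series, with 52 member genes tested, DNAJC17 was the single call in DMSO between 30 and 120 min (0.98 ± 0.26, edgeR adjusted p = 0.045; background 2.36%). It was lost when any replicate number was left out. DNAJB9 held 5.76, 2.77 and 3.50 CPM at 30 min and 6.59, 4.72 and 5.66 CPM at 60 min. At 90 min it held 7.37, 5.74 and 1.82 CPM and at 120 min 8.96, 7.29 and 6.85 CPM, so its 60-min libraries were not the highest, and the change from 30 to 120 min was 1.00 ± 0.36 (edgeR adjusted p = 0.14). This series has no 0-min group. The changes from 30 to 60 min were 0.54 ± 0.40 for DNAJB9, -0.13 ± 0.24 for DNAJA1 and 0.77 ± 0.23 for DNAJC27 (edgeR adjusted p = 0.67, 0.92 and 0.17). The difference between the series was not tested, and the mitotic genes named above were about as low in the release series at 30 min as in the mitosis series at 4 h (593 to 607 CPM), sets that were scaled separately. At 8 h against 4 h in the mitosis series, 2 of 55 member genes rose and 2 fell in DMSO (background 13.3%). DNAJB5, a cytosolic J-domain protein, fell by 1.40 ± 0.44 and HSP90AB1 by 0.49, while DNAJC6, the auxilin that uncoats clathrin vesicles in neurons, rose by 0.70 and HSPB11 by 0.75. None of these 4 calls held with each library left out in turn. With library sizes from all reads, where the median of all genes rose by 0.58, the split was 20 higher and 0 lower. The share of all genes called in that setting is not given here. Of the 17 pseudogene symbols tested between 4 and 8 h, 8 fell and 0 rose (47.1%, background 13.3%).

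Whether NIPBL loss changed chaperone transcription was asked in every series. With 15 min of 4sU no member was called in the main fit in the first 120 min after release, with the drug given from mitosis or from release. With the replicate number added as a block, HSPB8 was called in the average of the mitosis series. The clearest differences came at 4 to 8 h, where 14.5% of the member genes were called against 19.8% of all genes. HSPB8 and DNAJB5 were higher in dTAG there by 1.11 and 1.23 on the log2 scale, DNAJB5 from few converted reads. DNAJB1 and HSPA4L were higher by 0.48 and 0.46, while DNAJA3, HSPA14 and DNAJC11 were lower. HSPB8 was also called higher in dTAG at 120 min in the mitosis series when the label lasted the whole 120 min. In cardiomyocytes and neurons no member was called, and the log2 differences of HSPB8 there were below 0.

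Averaged over 30 to 120 min in the mitosis series, 0 of 55 member genes were called by edgeR (2 at an unadjusted p under 0.05, and 0 by DESeq2; background 1.25%). None was called at a single time by either tool, where 0.0% of all genes were called at 0, 30 and 60 min, 0.366% at 90 min and 0.95% at 120 min. The averaged difference of HSPB8 was 0.70 ± 0.26 (edgeR adjusted p = 0.27). With the replicate number as a block HSPB8 was called, though the deviations of same-numbered libraries correlated at as little as 0.011 at 120 min. In the release series 0 of 52 were called by edgeR on average (1 at an unadjusted p under 0.05, and 0 by DESeq2; background 2.28%) and 0 at 30, 60, 90 and 120 min (background 0.0%, 0.0933%, 0.632% and 1.4%). HSPB8 differed there by 0.35 ± 0.19 (adjusted p = 0.62), and its 120-min libraries held 6.45, 5.53 and 6.00 CPM in DMSO and 3.51, 12.03 and 13.0 CPM in dTAG, so 1 dTAG library lay below all DMSO libraries.

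At 4 to 8 h, 5 of 55 member genes were higher and 3 lower in dTAG on the average of the 3 times (14.5%, background 19.8%). At single times 1 member gene was called at 4 h (background 5.39%), 2 at 6 h (7.09%) and 2 at 8 h (8.14%), all higher. HSPB8 held 5.82 and 7.64 CPM in DMSO against 12.6 and 17.4 CPM in dTAG at 4 h. At 6 h it held 9.08 and 9.56 against 14.8 and 25.8 CPM, and at 8 h 6.64 and 9.69 against 15.4 and 18.1 CPM. Every dTAG library lay above every DMSO library at each of the 3 times. The averaged log2 difference of HSPB8 was 1.11 ± 0.17 (edgeR adjusted p = 0.00013), and it was 1.16, 1.14 and 1.04 at 4, 6 and 8 h, each called. DNAJB5 held 4.19 and 2.55 CPM in DMSO against 6.45 and 5.79 CPM in dTAG at 4 h, 1.86 and 1.37 against 4.93 and 3.19 at 6 h, and 1.58 and 0.98 against 3.72 and 3.96 at 8 h. Its groups did not overlap at any of the 3 times either, with an averaged difference of 1.23 ± 0.25 (adjusted p = 0.0016, edgeR).

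DNAJB1, with 26.03 and 22.7 CPM in DMSO against 24.2 and 33.3 CPM in dTAG at 4 h, overlapped there. At 6 h it held 22.1 and 16.2 against 32.8 and 31.1 CPM and at 8 h 22.3 and 22.3 against 27.0 and 35.0 CPM, without overlap. The averaged difference of DNAJB1 was 0.48 ± 0.12 (edgeR adjusted p = 0.0075). HSPA4L, an HSP110-family nucleotide exchange factor, held 28.4 to 41.5 CPM in the 6 DMSO libraries and 40.6 to 47.3 CPM in the 6 dTAG libraries, higher at every time, and differed by 0.46 ± 0.10. DNAJC5, the cysteine string protein of synaptic vesicles, was higher by 0.26 ± 0.08. The lower genes were the mitochondrial J-domain proteins DNAJA3 (-0.34) and DNAJC11 (-0.25) and the ribosome-associated HSPA14 (-0.34). HSPB8, DNAJB5, DNAJB1, HSPA4L and DNAJA3 held with each library left out, and DNAJC5, HSPA14 and DNAJC11 did not. None of the 8 was called relative to all reads of the same gene: all reads of HSPB8 rose by as much as its converted reads (1.10), so the relative difference was -0.10 and not called.

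Of the wider lists at 4 to 8 h, 3 of 22 unfolded protein response genes were higher and 0 lower (13.6%, background 19.8%), with PPP1R15A (GADD34, the phosphatase subunit that restores translation) at 0.56 ± 0.09. Of 32 heat shock factor and co-chaperone genes 1 was higher, BAG3 (0.34 ± 0.07), and 4 were lower (15.6%, background 19.8%). The lower genes were BAG2 (-0.50 ± 0.10), FKBP5 (-0.45 ± 0.11), TRAP1 (-0.45 ± 0.10) and CLPB (-0.28 ± 0.07). Of the CCT subunits 1 was lower. The pseudogenes HSPA8P7 (0.30) and HSPA8P5 (0.37) were higher. The summed mitotic genes stood at 593 to 607 CPM in DMSO and 672 to 835 CPM in dTAG at 4 h, 231 to 373 and 311 to 532 CPM at 6 h, and 170 to 226 and 191 to 243 CPM at 8 h, and none of the 12 was called. Their part in the differences was not tested.

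With 120 min of 4sU in the mitosis series, HSPB8 held 6.77, 6.26 and 7.54 CPM in DMSO and 13.5, 15.1 and 15.7 CPM in dTAG, without overlap. HSPB8 was the 1 member gene of 58 called (1.11 ± 0.21, edgeR adjusted p = 0.011; background 2.46%). It was not called without replicate 1 (adjusted p = 0.11) or replicate 2 (adjusted p = 0.42), nor on all reads (adjusted p = 0.073). In the release series HSPB8 held 9.08, 7.09 and 5.25 CPM in DMSO and 12.7, 12.3 and 12.3 CPM in dTAG, again without overlap, and differed by 0.80 ± 0.21 (adjusted p = 0.13). By edgeR 0 of 58 member genes were called there (3 at an unadjusted p under 0.05, and 1 by DESeq2; background 0.718%). The difference between the 2 drug schedules was 0.30 ± 0.30 for HSPB8, and 0 of 58 genes were called on it by edgeR (2 at an unadjusted p under 0.05, and 0 by DESeq2; background 0.0%).

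**Figure D4:**
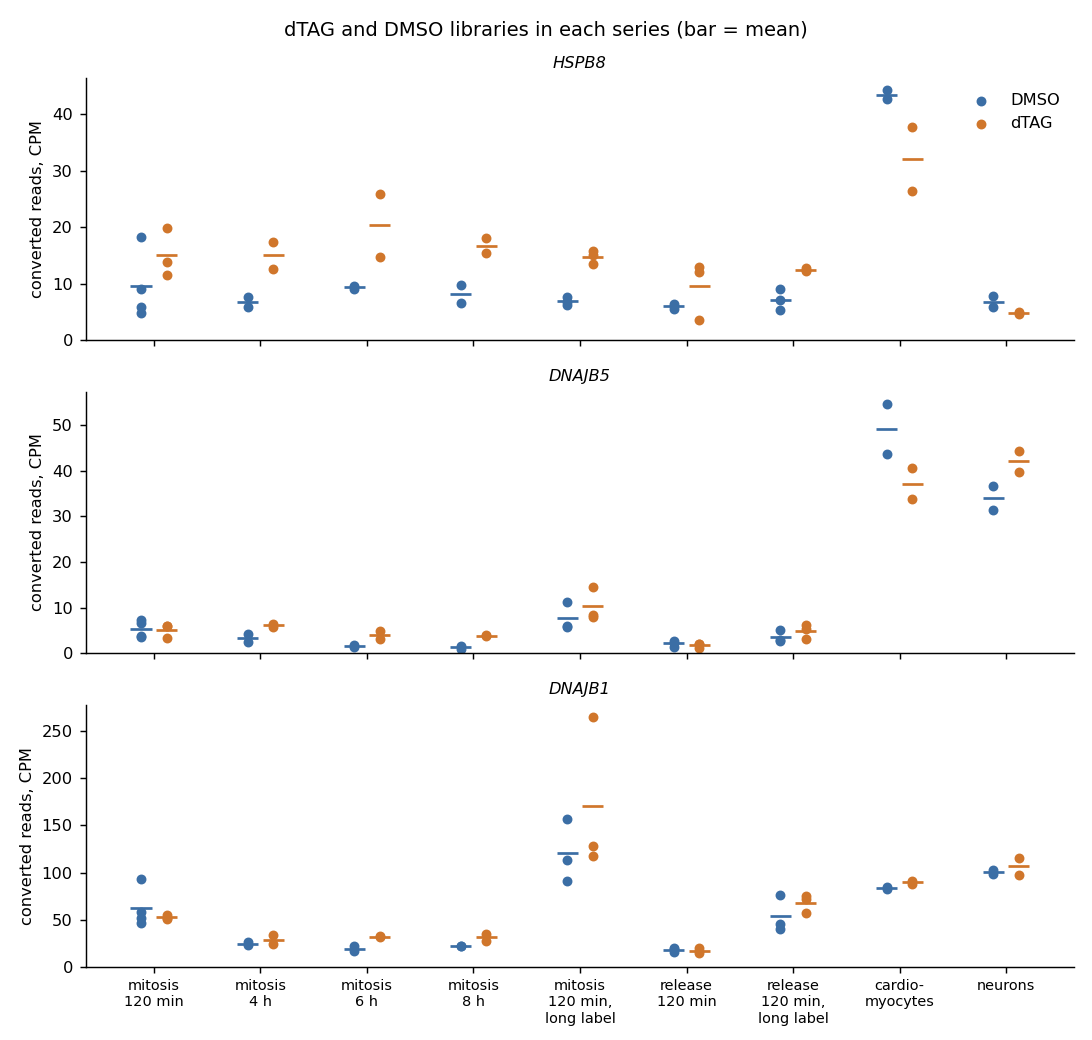
Converted reads (y axis, CPM) of HSPB8, DNAJB5 and DNAJB1 in each DMSO (blue) and dTAG (orange) library, with bars at group means, in the mitosis series, the release series, cardiomyocytes and neurons (x axis). The dTAG libraries of HSPB8 lie above the DMSO libraries at 4, 6 and 8 h and after 120 min of labelling, and below them in cardiomyocytes and neurons.

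In cardiomyocytes, 0 of 61 member genes were called between dTAG and DMSO by edgeR (3 at an unadjusted p under 0.05, and 0 by DESeq2; background 4.83%), and in neurons 0 of 61 (4 at an unadjusted p under 0.05, and 0 by DESeq2; background 2.24%). HSPB8 held 42.7 and 44.3 CPM in DMSO and 37.8 and 26.5 CPM in dTAG in cardiomyocytes (-0.44 ± 0.17, adjusted p = 0.20), and 5.84 and 7.76 against 4.95 and 4.63 CPM in neurons (-0.51 ± 0.27, adjusted p = 0.52). The dTAG libraries lay below the DMSO libraries in both cell types, the opposite side from RPE-1 at 4 h, a contrast across separately normalised sets that was not tested. The drug's effect was not called to differ between the 2 cell types by edgeR for any of the 61 (2 at an unadjusted p under 0.05, and 0 by DESeq2; background 0.595%). Outside the family, CRYAB, a small heat shock protein abundant in heart muscle that the rule's symbols do not take in, was lower in dTAG in cardiomyocytes (-1.10 ± 0.24, edgeR adjusted p = 0.023). FKBP5, an HSP90 co-chaperone, was lower in cardiomyocytes (-0.59 ± 0.11) and in neurons (-0.62 ± 0.10). Markers of other cell types were also lower in the dTAG cardiomyocytes: all 5 fibroblast and smooth muscle genes were detected and summed to 228 to 273 CPM in DMSO and 117 to 149 CPM in dTAG, and all 4 endothelial genes to 149.5 to 154 and 66.9 to 90.0 CPM, while the 8 cardiomyocyte markers summed to 4116 to 4455 and 4427 to 4698 CPM. Their part in the HSPB8 and CRYAB differences was not tested.

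The same DMSO libraries were compared for new RNA of chaperone genes between the cardiomyocyte and neuron cultures. Of the small heat shock genes 4 of 5, and of the endoplasmic reticulum members 7 of 12, were called higher in cardiomyocytes. In neurons 4 of 10 cytosolic HSP70 and HSP110 genes were called higher, and HSPA8 was not called (-0.20). None of these groups had a call the other way. Over all 18645 genes 53.7% were called in either direction, 4993 lower and 5023 higher in neurons, so their calls were not on one side. Counted in either direction, the endoplasmic reticulum share was near that of all genes, and the HSP70 and HSP110 share was below it. The small heat shock share was above it but rests on 5 genes. HSPB7 and HSPB3 had few or no converted reads in neurons, and HSPA4L and DNAJC12 led the neuron side. The count filter kept HSPB7, HSPB3 and DNAJC22 through cardiomyocytes and DNAJC12 through neurons, so only the direction seen could be called for them. Of 61 member genes tested, 22 were lower and 8 higher in neurons (49.2%, background 53.7%), with a median log2 difference of -0.14. With library sizes from all reads the split was 36 lower and 5 higher, and relative to all reads of each gene it was 40 lower and 0 higher. The median of all genes was -0.25 and -0.36 in these settings, and the shares of all genes called in them are not given here. The converted share itself was 29.2% in cardiomyocytes and 23.0% in neurons. Of the 30 calls, 22 held with each library left out, among them every gene described next.

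Of 5 small heat shock genes tested, 4 were lower in neurons and 0 higher (80.0%, background 53.7%). The 4 include HSPB7 and HSPB3, which the count filter kept through their cardiomyocyte reads, so these could only be called lower. HSPB7, the cardiovascular small heat shock protein (chromosome 1, 16014028 to 16019594, minus strand), held 66.8 and 90.9 CPM in cardiomyocytes and 0.15 and 0.14 CPM in neurons, from 1386 and 2 converted reads. This is a ratio of 554, with a 95% exact counting interval of 152 to 4539. HSPB3, a muscle small heat shock protein, held 4.13 and 3.37 CPM in cardiomyocytes and 0 in both neuron libraries, 17.6 times a floor of 3 reads over the neuron group, with an exact 95% lower counting limit of 14.0 on the ratio. HSPB8 held 42.7 and 44.3 against 5.84 and 7.76 CPM (-2.67), and HSPB1 held 46.9 and 59.4 against 12.1 and 12.6 CPM (-2.10).

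Of the 12 endoplasmic reticulum members, 7 were lower in neurons and 0 higher (58.3%, background 53.7%). DNAJC3 held 109 and 105 CPM in cardiomyocytes and 33.7 and 38.2 CPM in neurons (-1.57), HSPA5 held 214 and 198 against 92.4 and 93.4 CPM (-1.15), and HSP90B1 held 216 and 178 against 116 and 105 CPM (-0.83). The direction of HSPA5 and HSP90B1 turned when all reads were used (0.61 and 0.73), and 16.9% of HSPA5 reads were converted in cardiomyocytes against 3.67% in neurons. Of 8 mitochondrial members, 5 were lower (62.5%), led by DNAJC15, an inner-membrane J-domain protein, at 380 and 432 against 54.6 and 51.5 CPM (-2.94). DNAJC22 held 17.8 and 22.8 CPM in cardiomyocytes and 0.58 and 0.83 CPM in neurons, a ratio of 28.7 (95% exact counting interval 15.2 to 59.5). DNAJC6, known from neurons, held 350 and 340 CPM in cardiomyocytes and 70.7 and 74.8 CPM in neurons (-2.25).

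Of the 10 cytosolic HSP70 and HSP110 genes, 4 were higher in neurons and 0 lower (40.0%, below the background of 53.7%). HSPA4L held 18.1 and 14.3 CPM in cardiomyocytes and 97.2 and 90.3 CPM in neurons (2.53). HSPA1A held 12.8 and 12.5 against 26.4 and 21.9 CPM (0.93), HSPA1B 7.83 and 7.47 against 17.7 and 14.8 CPM (1.08), and HSPH1 203 and 205 against 365 and 348 CPM (0.80). No library of one cell type overlapped the other for these 4 genes. DNAJC12, a co-chaperone of aromatic amino acid hydroxylases, held 1.16 and 0.84 against 6.57 and 4.99 CPM (2.49). Relative to all reads of the same gene, where the median of all genes moved to -0.36, HSPH1 (-0.31), HSPA4L (-0.22), HSPA1B (-0.20) and HSPA1A (-0.14) had negative values that lay above that median. CRYAB was 6.57 ± 0.46 lower on the log2 scale in neurons. In these DMSO libraries mitotic genes summed to 836 to 870 CPM in neurons and 473 to 636 CPM in cardiomyocytes, pluripotency genes to 169 to 180 and 108 to 120.2 CPM, fibroblast and smooth muscle genes to 239.8 to 240.2 and 228 to 273 CPM, and endothelial genes to 5.99 to 6.37 and 149.5 to 154 CPM; their part in these differences was not tested.

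**Figure D5:**
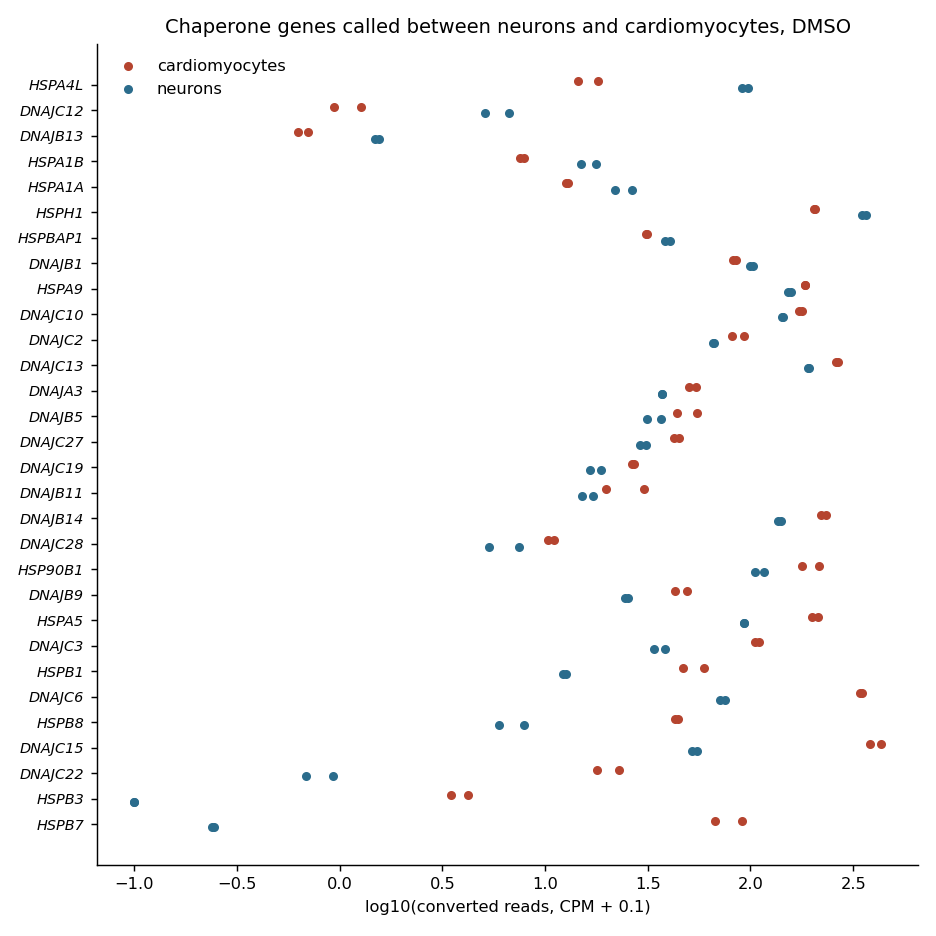
Converted reads (x axis, log10 of CPM + 0.1) of the 30 member genes called between neurons and cardiomyocytes in DMSO, 2 libraries per cell type shown as points. HSPB7, HSPB3 and DNAJC22 lie farthest to the cardiomyocyte side and HSPA4L and DNAJC12 farthest to the neuron side.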

How the data were processed

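The files hold 92 libraries in 32 groups. For each gene the authors deposited counts of all reads and of reads with a T-to-C conversion, on hg38; HISAT, Picard and HTSeq are named in the submitters' processing notes, and their versions, the conversion threshold and the strand setting are not given in the sources used here. The authors also deposited, per the file headers, the fraction of covered T bases that were converted, which was not used. A gene missing from a library's file was taken as 0, starts were moved by 1 base to count from 1, and 281 of 49186 genes (the Y chromosome and the X-inactivation locus) were not used.

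Converted reads were tested with edgeR 4.0.16 (R 4.3.3; TMM, filterByExpr with a minimum count of 10 and total of 15, quasi-likelihood test, Benjamini-Hochberg adjusted p under 0.05 over all genes). The 5 sets (mitosis series, release series, 4 to 8 h, 120 min of 4sU, WTC11-derived cells) were each fitted alone, so CPM (TMM-scaled) are compared within a set. An SE is the log2 change over the square root of F. DESeq2 1.42.0 and the other alternatives are given at the end; relative values model converted reads with all reads of the same gene as offset (0.5 added). On simulated data, a log2 change of 1 was called in 57.5% of changed genes for 120 against 0 min, 62.5% for 120 min of 4sU in the mitosis series, 77.5% for cardiomyocytes, 94.5% for the release average and 97.5% for the 4 to 8 h average. In the same order, 5.7, 6.0, 5.5, 3.1 and 8.5% of the calls were false. The changed genes were drawn above a minimum mean read count, so members with few reads are not covered.

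Intervals cover counting error only. The replicate numbers in the labels were checked for pairing by the correlation of same-numbered libraries' deviations: all 3 pairs were above 0.1 with 120 min of 4sU in the mitosis series (0.152 to 0.581), at 0 min (0.195 to 0.564) and, in the release series, at 120 min (0.238 to 0.422). The 2 pairs at 30 min of the mitosis series (0.272 and 0.466) and those at 6 h (0.188) and 8 h (0.169) were too. The lowest pairs of the mitosis series at 60, 90 and 120 min were 0.059, 0.078 and 0.011. Genes were named by a rule. The inducible and constitutive core members were always named, with up to 8 largest rises and falls per comparison. These were taken among called members with a mean log2 CPM of at least 2. HSPB3 and DNAJC12 between the cell types, and DNAJB5 at 4 to 8 h, were called below that level. They were named outside the rule, chosen after their values were seen. So were some called members beyond the 8 largest, such as HSPB11 at 60 min. The members and lists were chosen with earlier results of these data known.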

Additional observations from a re-analysis of the deposited data

Results flagged for a closer look

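In groups of 4 libraries, a value was singled out where its gap to the nearest other, over the group's range, exceeds Dixon's 95% critical value. This was so for 9 of 126 groups tested, where chance gives about 1 in 20; in 2 of the 9, both of HSPE1, the other libraries were all at 0, so the gap filled the range by construction. Replicate 3 of the DMSO group at 120 min held 508 CPM of HSPA5 (others 292 to 316) and 36.6 CPM of HSPB1 (13.2 to 16.5). Replicate 4 of the DMSO group at 90 min held 230.3 CPM of DNAJC3 (193 to 198) and 1076 CPM of HSPA8 (710 to 744). In the dTAG groups, replicate 3 at 90 min held 555 CPM of HSP90AB1 (712 to 734), replicate 1 at 90 min 38.1 CPM of HSPB1 (11.2 to 15.7) and replicate 4 at 60 min 2.02 CPM of HSPA1A (5.12 to 5.31). HSPE1, within the span of HSPD1, held 0.53 CPM in replicate 2 at 120 min and 0.39 CPM in replicate 2 at 60 min in DMSO, and 0 in the other libraries of those groups.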

How the results depend on the processing

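Counts here cover members with gene and pseudogene symbols together. At 60 min 32 members were called, 4 on all reads, 38 with the replicate number as a block and 15 to 33 without 1 replicate number or library. At 90 min 10 were called, 29 with library sizes from all reads, 16 relative to all reads of the gene, 15 with the block and 5 to 12 without 1 replicate or library. At 120 min 14 were called, 6 relative to all reads, 15 with the block and 6 to 13 without 1 replicate. In the release series 1 was called between 30 and 120 min, 0 with DESeq2's size factors or on all reads, 6 with no filter, 2 with the block, 18 with library sizes from all reads, 21 relative to all reads and 0 with each replicate left out. Between 4 and 8 h 12 were called, 4 on all reads, 20 with library sizes from all reads, 25 relative to all reads and 1 to 14 without 1 library (1 without DMSO 8 h replicate 1). For the drug at 30 to 120 min in the mitosis series, 1 was called with no filter, with the block (HSPB8, 0.70, adjusted p = 0.038) and with library sizes from all reads, against 0. At 4 to 8 h 10 were called, 5 on all reads, 5 with library sizes from all reads, 0 relative to all reads and 6 to 13 without 1 library. With 120 min of 4sU in the mitosis series 1 was called, 2 by DESeq2's own test, 0 on all reads, 0 relative to all reads and 0 to 1 without 1 replicate; in the release series DESeq2's own test called 1 against 0. In cardiomyocytes 0 were called, 2 with no filter, 4 with crossed pairs as the block (the replicate numbers correlated at -0.245) and 1 without dTAG replicate 1. Between neurons and cardiomyocytes 34 were called (26 to 45 over all alternatives). Where the replicate numbers pair the libraries throughout a comparison (120 min of 4sU, mitosis series), the block changed no call.

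On all reads, the direction turned at 60 min for DNAJA3 (0.10), at 90 min for HSP90B1 (0.15), at 120 min for DNAJC15 (-0.20), at 8 h for HSPB11 (-0.19), and in neurons against cardiomyocytes for HSPA5 (0.61), HSPA8 (0.45) and HSP90B1 (0.73). With library sizes from all reads it turned for HSP90B1 at 90 min (0.030) and HSP90AB1 at 8 h (0.10). Relative to all reads of the gene it turned at 60 min for DNAJB1 (0.44), HSP90AA4P (0.011), HSP90AA2P (0.14) and HSPA8P1 (0.0077), at 90 min for DNAJC16 (0.029) and HSPA12A (0.31), at 120 min for DNAJB6 (0.24), DNAJC13 (0.29) and HSPA12A (0.0055), and in the release series at 120 min for HSPH1 (0.85). At 8 h it turned for HSPA5 (0.43), DNAJA1 (0.59), HSP90AB1 (0.18), HSPH1 (1.01), DNAJB1 (0.37), HSP90AB3P (0.0096), HSP90B3P (0.032), HSP90AA4P (0.011), HSPD1P6 (0.0019), HSPD1P5 (0.031) and HSPE1P4 (0.037). For the drug at 4 to 8 h it turned for DNAJC5 (-0.014) and HSPB8 (-0.10), and in neurons for HSP90AA1 (-0.53), DNAJA1 (-0.46), HSPH1 (-0.31), DNAJB1 (-0.60), HSPA4L (-0.22), HSPBAP1 (-0.38), HSPB7 (1.83), HSPA1B (-0.20), HSPA1A (-0.14) and HSP90AA2P (-0.076). The relative setting moves the median of all genes too, by 0.59, 0.37 and 0.29 at 60, 90 and 120 min, 0.54 in the release series, 0.49 at 8 h, -0.06 for the drug and -0.36 in neurons; past that median turned DNAJC13 at 120 min, HSPH1 in the release series, DNAJA1 and HSPH1 at 8 h, HSPB8 for the drug, and HSP90AA1, DNAJA1, DNAJB1, HSPBAP1 and HSPB7 in neurons, and the others stayed on their side of it. Library sizes from all reads move it by 0.49 at 90 min and 0.58 at 8 h, above both values given. The cause was not tested. Over all alternatives, single members' called values kept direction and call in 898 cases, lost the call in 271 and turned in 33. Depth limits HSPB8 at 0 min (5 converted reads), DNAJB5 at 4 to 8 h and HSPE1.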
